A study of Homo sapiens with 120 samples.

Results

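Cells of the established human B lymphoblastoid line TK6 were exposed for 4 h to the highest labelled dose of colcemid, and their gene expression was compared with that of untreated TK6 cells of the same time. The comparison rests on 6 of the 120 arrays of the series, 3 treated and 3 untreated, chosen by their titles, and it runs across all 14023 genes that were tested. Colcemid binds tubulin, the building block of microtubules, and keeps it from assembling, so that dividing cells stop in mitosis for want of a spindle. The study set such spindle poisons, which missort chromosomes, beside DNA-damaging chemicals to characterise how formaldehyde harms the genome. The colcemid set holds 24 arrays: untreated cells and 3 doses, at 4 h and at 24 h, with 3 arrays labelled experiments 1 to 3 in each group. The doses are labelled 1, 2 and 4 µg/ml, but the titles write them with leading zeros, and whether a decimal point was lost is not settled. They are therefore called the lowest, middle and highest dose. Untreated cells carry the treatment "none" in the labels, and whether they received the vehicle is not given. All cells are 1 line, and nothing says whether the 3 experiments were separate cultures, so p-values measure the spread between these arrays, which may be partly technical.

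Cells count their free tubulin. When microtubules fall apart and free tubulin dimers build up, ribosomes that are making new tubulin chains are recognised by the protein TTC5 and the tubulin messenger RNA is degraded, a feedback called tubulin autoregulation. Loss of microtubules is also known to release signalling proteins held on them and to activate stress kinases such as JNK, whose targets include the AP-1 transcription factors JUN and JUND. Immediate early genes are those switched on by such signals without new protein synthesis, and dual-specificity phosphatases (DUSPs) and SOCS proteins are feedback inhibitors that shut the signals down. B cells use the same circuits in activation, with surface CD69 as an early sign.

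RNA levels were read on Affymetrix gene expression arrays as log2 signals, so that 1 unit is a 2-fold difference. The B cell markers MS4A1, PAX5 and CD79A were at 11.83 to 12.10, 11.39 to 11.60 and 8.92 to 9.07 on the 6 arrays, and 0 of the 18 tested B cell identity genes were called. Of the tested markers of other cells, 0 of 10 for T and NK cells, 0 of 5 for monocytes and granulocytes, 0 of 8 for epithelium and fibroblasts and 0 of 4 for red blood cells were called. Those tested were the bright ones among 15, 10, 12 and 4 markers with a probe set. Over all tested genes 0.913% were called, so lists this short would hold few calls, and these counts do not test cell identity. The untreated array of experiment 3 stood apart: 175 genes lay at least 0.5 from the mean of the other 2 untreated arrays, against 2 to 21 for the other 5 arrays. The difference between 3′ and 5′ probe sets of ACTB, a sign of RNA quality, was 0.379 to 0.387 with colcemid and 0.299 to 0.356 without. These groups did not overlap, whereas those of GAPDH did, at 0.121 ± 0.019 (SD, n = 3) with colcemid and 0.140 ± 0.019 (SD, n = 3) without. The part of RNA quality in the results was not tested.

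The following stretches of promoter are shown because they belong to genes that rose and hold the letters TGACNTCA, the core of sites that ATF and JUN family proteins are known to bind. Each runs 5′ to 3′ on the strand of its gene in RefSeq's build GRCh38.p14, with the 8 matching letters in capitals.
KLF6: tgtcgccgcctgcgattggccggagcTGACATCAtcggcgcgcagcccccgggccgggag
JUND: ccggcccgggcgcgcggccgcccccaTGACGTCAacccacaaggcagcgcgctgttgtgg
PPP1R15A: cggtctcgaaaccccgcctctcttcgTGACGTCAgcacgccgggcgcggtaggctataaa
JUN: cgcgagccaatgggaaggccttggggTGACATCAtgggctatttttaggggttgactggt
DUSP10: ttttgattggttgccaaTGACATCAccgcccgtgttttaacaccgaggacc
TNFAIP6: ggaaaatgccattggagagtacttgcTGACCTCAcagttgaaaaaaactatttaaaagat

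The KLF6 stretch lies at chr10:3785348-3785407 on the minus strand, with its match starting 172 bases before the gene's start. The JUND stretch lies at chr19:18281789-18281848 on the minus strand (200 bases before the start) and that of PPP1R15A at chr19:48872337-48872396 on the plus strand (58 bases). The JUN stretch lies at chr1:58784081-58784140 on the minus strand (67 bases), and that of DUSP10 at chr1:221742289-221742339 on the minus strand (233 bases). The TNFAIP6 stretch lies at chr2:151357514-151357573 on the plus strand (52 bases). All 6 lie upstream of the annotated gene start, in the promoter region. The letters occurred on either strand in the window from 250 bases before to 50 bases after the start in 6 of the 12 most raised genes that had a promoter in the table and in 14 of 96 raised genes with one (14.6%). They occurred in 6.87% of the 11163 promoters of tested genes and in 7.97% of all 27305 promoters. The related AP-1 letters TGANTCA, which are a letter shorter so that neither pattern contains the other, occurred in 6.25% of the raised genes' promoters and in 5.06% of those of tested genes. The NF-kappaB site, searched by its consensus on both strands, occurred in 13.5% against 13.2%, and the CArG box, to which serum response factor binds, in 1.04% against 1.15%. These matches are a description of letters in a window, and no binding was measured.

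After 4 h the response was small in number and mostly upward. Of 14023 tested genes, 128 were called at an adjusted p under 0.05 (0.913%; limma with Benjamini-Hochberg adjustment), of which 113 were higher with colcemid (0.806%) and 15 were lower (0.107%). Only 3 rises and 0 falls reached 2-fold, and 32 rises and 4 falls reached 1.3-fold, with a median size of 0.29 (log2) among the called genes. All 128 moved the same way in each of the 3 experiments, and for none of them did the treated and untreated arrays overlap. Over all tested genes the colcemid arrays lay wholly above the untreated ones in 8.09% and wholly below in 3.44%. An unadjusted p under 0.05 was reached by 1151 genes. With the experiment number as a block, 278 genes were called, 228 higher and 50 lower, and these included all 128. With quantile normalization repeated, 239 were called, 185 higher and 54 lower. Leaving out the untreated array of experiment 3 left 94 calls, 71 higher and 23 lower. Leaving out the colcemid array of experiment 1 left 84.

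**Figure D1:**
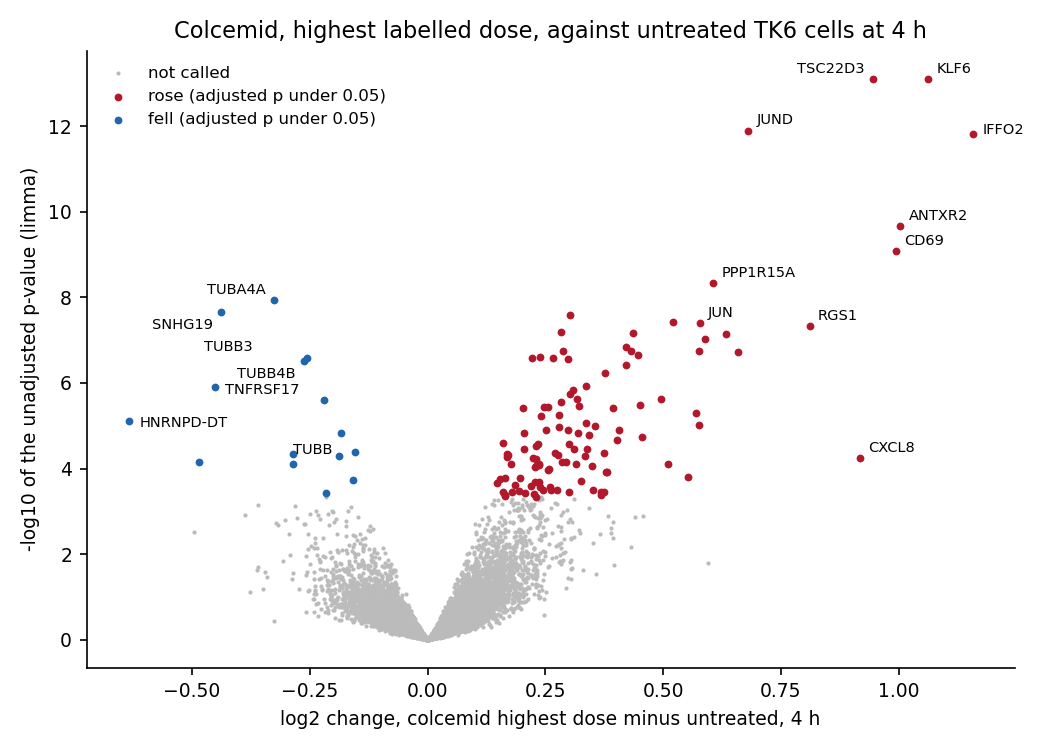
Change of each tested gene (horizontal axis, log2 of colcemid over untreated at 4 h) against the unadjusted limma p-value (vertical axis, −log10). Red points are the 113 genes that rose, blue points the 15 that fell, and the right arm reaches higher and farther than the left. Of the 15 blue points 4 are tubulins.

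Alpha and beta tubulins pair into the dimers from which microtubules are built, and their messages made up 4 of the 15 falls. Of 9 alpha and beta tubulin genes tested, 4 fell and 0 rose: TUBA4A, TUBB4B, TUBB3 and TUBB. Over all tested genes 0.107% fell and 0.806% rose. The median change of the 9 was -0.18, against 0.0052 over all tested genes. With the experiment as a block TUBB2A was called as well, for 5 of 9. TUBA4A encodes an alpha tubulin. Its signal was 11.72, 11.75 and 11.63 with colcemid in experiments 1 to 3 and 12.03, 12.04 and 12.02 without. Every treated array lay below every untreated one, and the difference was -0.33 ± 0.035 (SE; adjusted p = 2.01e-05). TUBB4B encodes a beta tubulin found in most tissues. It measured 12.57, 12.60 and 12.54 with colcemid and 12.83 on each of the 3 untreated arrays. The treated arrays were again all lower, by -0.26 ± 0.034 (SE; adjusted p = 0.000148).

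TUBB3 is a beta tubulin best known from neurons. It was at 11.65, 11.67 and 11.65 with colcemid and at 11.92, 11.92 and 11.90 without, with no overlap (change -0.26 ± 0.033, SE; adjusted p = 0.000137). TUBB is the main beta tubulin of dividing cells. It was at 13.30, 13.37 and 13.29 against 13.52, 13.51 and 13.48. Treated arrays were all lower and the change was -0.18 ± 0.032 (SE; adjusted p = 0.0035). The falls of these 4 genes range from 1.14-fold for TUBB to 1.25-fold for TUBA4A. TUBB2A, another beta tubulin, had a change of -0.22 ± 0.052 (SE) with treated arrays at 12.67 to 12.74 and untreated ones at 12.84 to 13.01, but its adjusted p was 0.0506.

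The alpha tubulins TUBA1B and TUBA1C, which are abundant in dividing cells, had changes of -0.07 ± 0.028 (SE; adjusted p = 0.452) and -0.09 ± 0.031 (SE; adjusted p = 0.292). Their treated arrays lay below all untreated arrays, although neither passed the test. TUBA1A and TUBA8 overlapped between groups, with changes of -0.02 ± 0.046 and 0.07 ± 0.085 (SE). By gene, 7 of the 9 tubulins lay wholly below the untreated arrays, against 3.44% of all tested genes. Of the 18 tubulin probe sets bright enough to be read, which cover these 9 genes, 17 had a lower mean with colcemid. For 16 of them the groups did not overlap. Several of these probe sets read the same gene, so they are not separate observations. Many of them carry the suffix that marks probes matching more than 1 related sequence, and tubulin genes are close copies, so signal may be shared between family members. TUBA4A and TUBB2A were read by probe sets without that suffix. When an unmarked probe set was used wherever a gene had one, 3 of the 8 tubulins still bright enough were called lower, and TUBB was not among them. TUBB3 and TUBB4B have only marked probe sets, which were kept for them. Only TUBA4A was therefore called from an unmarked probe set. Without experiment 1 or without experiment 3, only TUBA4A was called, and 0 of the 9 were called from the 6 arrays alone.

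**Figure D2:**
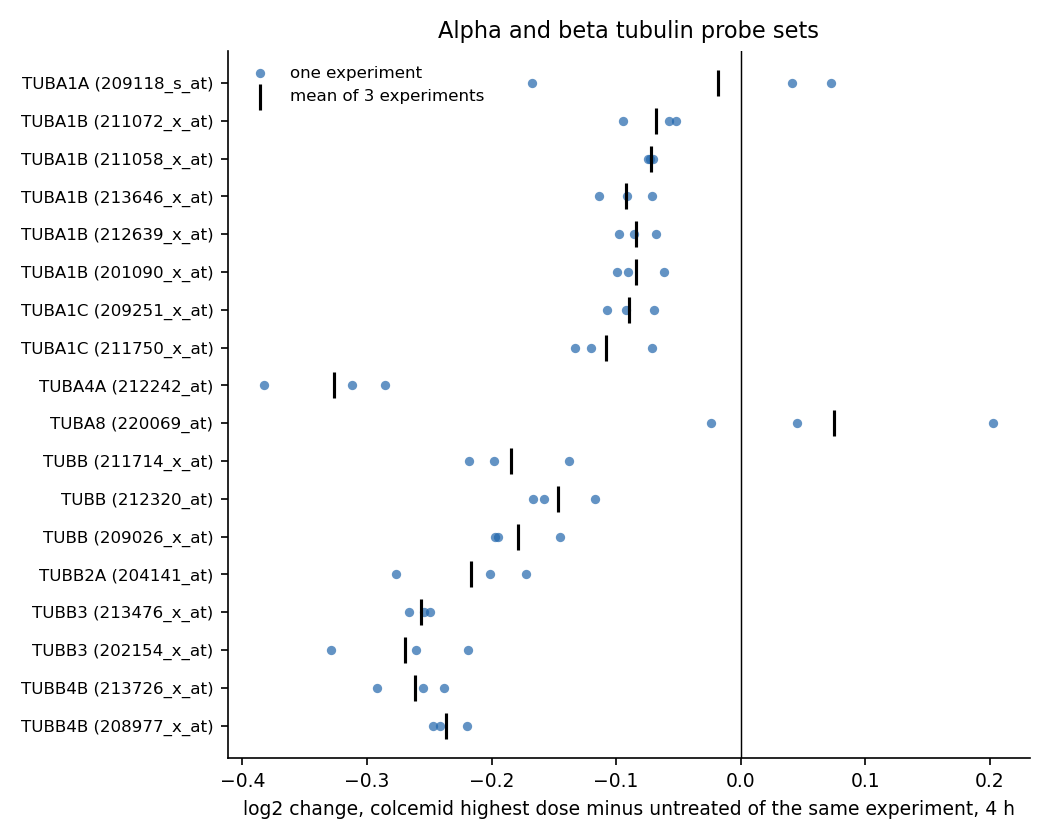
Change of each of the 18 alpha and beta tubulin probe sets bright enough to be read, in each experiment (points, log2 of colcemid over untreated of the same experiment at 4 h) with the mean of 3 experiments (bars). Among these probe sets all 3 points lie below 0 for the beta tubulins and TUBA4A, whose mean of -0.33 is the farthest left, and TUBA1A and TUBA8 have points on both sides of 0.

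Other genes of the tubulin system were not called at 4 h. Of 4 gamma, delta and epsilon tubulins, 9 tubulin cofactors and autoregulation genes, 12 subunits of the CCT and prefoldin folding machines and 20 microtubule-binding and modifying proteins, 0 were called in either direction. Over all tested genes the share called was 0.913%. TTC5, the factor of tubulin autoregulation, measured 8.32, 8.45 and 8.30 with colcemid and 8.35, 8.33 and 8.32 without. Its groups overlapped, and its difference of 0.02 had a 95% interval from -0.10 to 0.15.

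The genes with the largest rises were led by IFFO2, an intermediate filament family member. IFFO2 measured 8.57, 8.55 and 8.43 with colcemid and 7.30, 7.50 and 7.28 without. The groups were about 1 unit apart with no overlap, a rise of 1.16 ± 0.073 (SE; adjusted p = 5.26e-09) or 2.23-fold. KLF6 is a zinc finger transcription factor and an immediate early gene. Its signal was 11.23, 11.26 and 11.33 against 10.21, 10.21 and 10.20, a rise of 1.06 ± 0.057 (SE; adjusted p = 5.61e-10) with no overlap. Of 4 further KLF6 probe sets, 3 had differences of 0.87 to 0.98, and the dimmest, at 0.22, overlapped between groups. ANTXR2 encodes a cell surface receptor for extracellular matrix and anthrax toxin. It went from 6.17, 5.95 and 5.98 to 7.15, 7.14 and 6.83, all treated arrays being higher, a rise of 1.00 ± 0.084 (SE; adjusted p = 6.07e-07). This is a dim probe set near the limit of 6.183 for testing, and the other ANTXR2 probe sets were below that limit.

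CD69, an early activation marker of lymphocytes, measured 8.46, 8.42 and 8.54 with colcemid and 7.46, 7.59 and 7.39 without. All treated arrays were higher, by 0.99 ± 0.090 on average (SE; adjusted p = 1.93e-06). TSC22D3, also called GILZ, is a leucine zipper protein best known as a target of glucocorticoids. It measured 10.35, 10.45 and 10.35 against 9.49, 9.48 and 9.34, a rise of 0.95 ± 0.051 (SE; adjusted p = 5.61e-10). CXCL8, the neutrophil chemokine interleukin-8, was at 9.21, 8.50 and 9.02 against 8.22, 7.61 and 8.15. Experiment 2 was the lowest in both groups, so the spread within each group was wide. Within every experiment the treated array was above the untreated one. The means differed by 0.92 ± 0.179 (SE; adjusted p = 0.00974) in the fit without a block, whose SE includes the spread between experiments. In such fits the call was lost without the colcemid array of experiment 1 or 3 or the untreated array of experiment 2. It was kept with the experiment as a block.

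RGS1, a brake on G protein signalling in B cells, rose by 0.81 ± 0.094 (SE; adjusted p = 5.11e-05), from 9.67, 9.65 and 9.75 to 10.38, 10.52 and 10.61 with no overlap. PPP1R15A (GADD34) is the stress-induced partner that directs protein phosphatase 1 to the translation factor eIF2alpha. It stood at 8.66 on each treated array and at 8.04, 7.98 and 8.13 without treatment, a rise of 0.61 ± 0.061 (SE; adjusted p = 9.22e-06). ZBTB10, a zinc finger repressor, rose by 0.66, PBXIP1, a partner of PBX proteins, by 0.63, and RAB11FIP1, an effector of the recycling GTPase RAB11, by 0.59. TNFAIP6, a secreted hyaluronan-binding protein induced by TNF, rose by 0.58. For each of these last 4 genes all treated arrays were above all untreated ones, with adjusted p from 6.15e-05 to 0.00257. Further probe sets bright enough to be read were not all alike. Those of ZBTB10 changed by 0.77, 0.67, 0.03 and -0.14, of PBXIP1 by 0.43, 0.41 and 0.20 and of RAB11FIP1 by 0.48 and 0.15. Groups overlapped for the values 0.03, -0.14, 0.20 and 0.15.

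**Figure D3:**
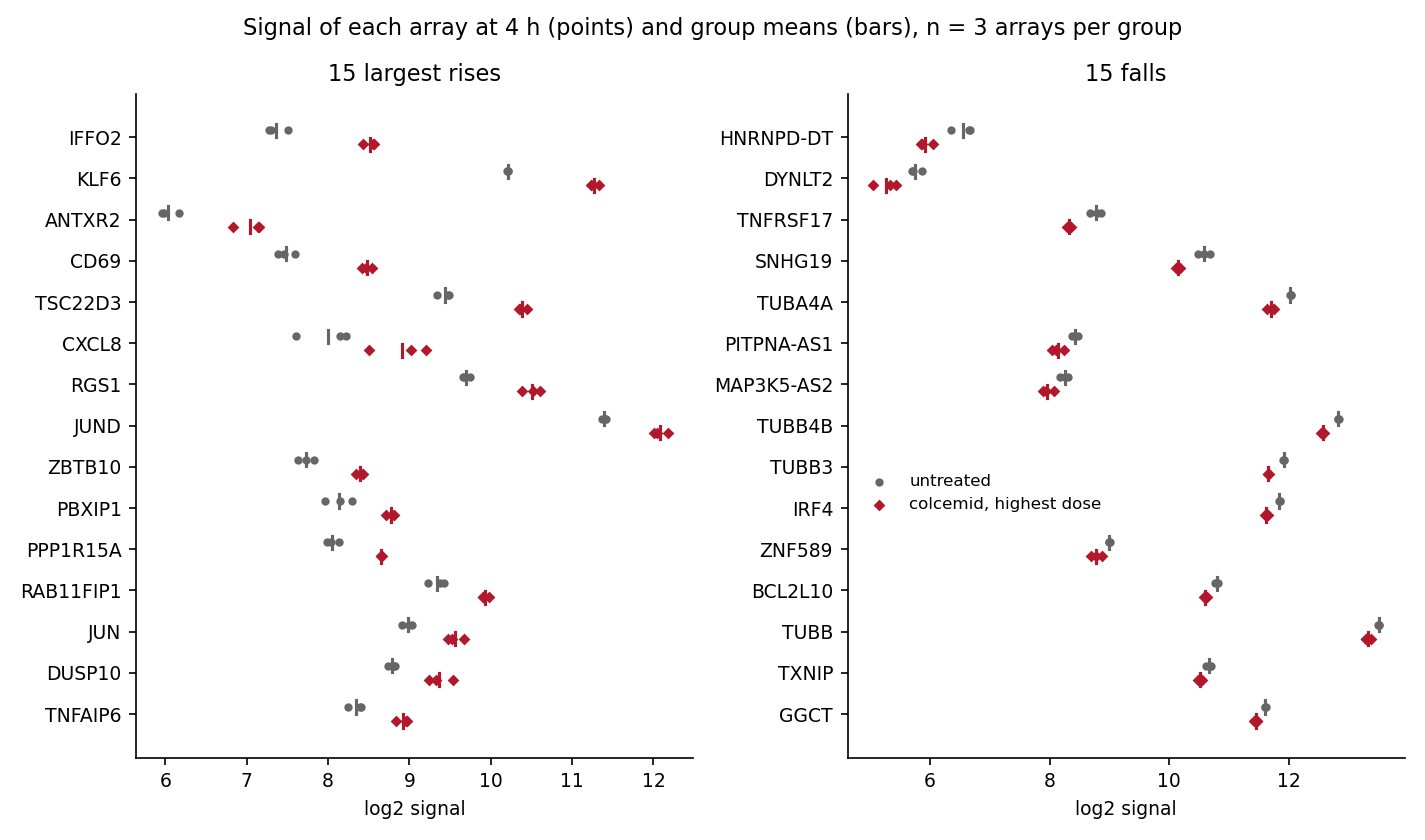
Signal (log2) of each of the 6 arrays for the 15 genes with the largest rises (left) and all 15 genes that fell (right): grey points are untreated arrays, red diamonds arrays of the highest colcemid dose, and bars the means of 3. In every row the red and grey points are separate, with the means farthest apart at IFFO2 and a wide scatter at CXCL8.

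Immediate early genes rose together in part. Of 26 tested, 8 rose and 0 fell (KLF6, JUND, JUN, DUSP1, DUSP5, MCL1, IER3 and DUSP2). Of the 26, 23 had a change above 0, and the median was 0.21 against 0.0052 over all tested genes. Among all tested genes 0.806% rose, 0.107% fell and 7469 of 14023 had a change above 0. This list, like the others, was written with earlier results of these data known. JUND, an AP-1 subunit, measured 12.04, 12.01 and 12.18 with colcemid and 11.42, 11.40 and 11.37 without. The rise was 0.68 ± 0.043 (SE; adjusted p = 5.26e-09), with no overlap. Further JUND probe sets bright enough to be read changed by 0.32, without overlap, and by 0.15, with overlapping groups. JUN, the partner of JUND in AP-1, was at 9.47, 9.52 and 9.68 against 8.91 to 9.03 on the 3 untreated arrays. It was higher on every treated array by a mean of 0.58 ± 0.066 (SE; adjusted p = 4.71e-05). Further readable JUN probe sets changed by 0.34, 0.63 and 0.32, and groups overlapped only for the last. Other genes of this list gave no call at 4 h, among them FOS, EGR1, ATF3 and MYC. FOS had a change of 0.09 ± 0.083, EGR1 of 0.25 ± 0.149, ATF3 of 0.17 ± 0.084 and MYC of -0.02 ± 0.046 (all SE), with adjusted p from 0.622 to 0.99. FOS was close to the limit of detection, at 5.81 to 6.04 on the 6 arrays. On the probe set that stands for EGR1 all treated arrays were above all untreated ones, and its other probe sets overlapped. Without the untreated array of experiment 3, 6 of 26 immediate early genes were called, and DUSP5 and IER3 were not. JUN lost its call when unmarked probe sets were used wherever a gene had one.

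Among feedback inhibitors of signalling, 6 of 16 MAP kinase phosphatase and SOCS genes rose and 0 fell, with a median of 0.21. Over all tested genes 0.806% rose and 0.107% fell, with a median of 0.0052. DUSP10 is a phosphatase that prefers the stress kinases JNK and p38. It measured 9.24, 9.33 and 9.54 with colcemid and 8.83, 8.74 and 8.81 without, a rise of 0.58 ± 0.073 (SE; adjusted p = 0.000121) with no overlap. SOCS3, an inhibitor of cytokine receptors that signal through JAK kinases, was at 7.69, 7.69 and 7.74 against 7.31, 7.08 and 7.01. All treated arrays were higher, by 0.57 ± 0.092 (SE; adjusted p = 0.00154). DUSP1 rose by 0.45, DUSP5 by 0.31, DUSP2 by 0.28 and SPRY2, an inhibitor of receptor tyrosine kinase signals, by 0.26. DUSP1, DUSP2 and DUSP5 stand in this list and in the immediate early list. Without the untreated array of experiment 3 the count was 4, and SPRY2 lost its call when any 1 of the 6 arrays was left out.

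Among 18 NF-kappaB targets, 6 rose and 0 fell, 17 had a change above 0, and the median was 0.17. Over all tested genes 0.806% rose, 0.107% fell, 7469 of 14023 had a change above 0, and the median was 0.0052. This list too was written with earlier results known. TNF, the cytokine, was at 9.51, 9.52 and 9.53 with colcemid and at 9.10, 9.05 and 8.93 without, a rise of 0.49 ± 0.075 (SE; adjusted p = 0.000896) with no overlap. REL, an NF-kappaB subunit, rose by 0.37, and CD83, a surface marker of activated B cells and dendritic cells, by 0.29. TRAF1, a signalling adaptor of TNF receptors, rose by 0.23, NFKBIA, the inhibitor that holds NF-kappaB in the cytoplasm, by 0.23, and ICAM1, an adhesion molecule, by 0.21. With the experiment as a block 8 of the 18 were called, and 5 when the untreated array of experiment 3 was left out as well. Without the block, leaving out that array gave 2 (TNF and CD83), and 2 were called without the colcemid array of experiment 1. Leaving out the colcemid array of experiment 2 or 3 or the untreated array of experiment 2 gave 3 each. TRAF1, NFKBIA and ICAM1 lost their calls whichever of the 6 arrays was left out.

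Smaller numbers were called in other lists, where the shares over all tested genes were 0.806% higher and 0.107% lower. The lists were not tested as sets. Of 15 lymphocyte activation genes CD69 and CD83 rose, with 4 called when the experiment was a block. Of 17 apoptosis regulators MCL1 and BCL2 rose, both of them inhibitors of mitochondrial cell death. MCL1 measured 11.25, 11.26 and 11.27 with colcemid and 11.01, 10.96 and 10.91 without, a rise of 0.30 ± 0.034 (SE; adjusted p = 3.61e-05), and BCL2 rose by 0.30 ± 0.055 (SE; adjusted p = 0.00575). BCL2L10, another member of the BCL2 family that stands in none of the lists' calls, fell by 0.19. Without the colcemid array of experiment 1, only 1 of the 17 was called. Of 12 cholesterol synthesis genes, HMGCS1, which makes HMG-CoA, and INSIG1, a sensor that holds back the pathway, each rose by 0.27, and 1 of the 2 was called whichever of the 6 arrays was left out. Of 15 heat shock genes, DNAJB1, a co-chaperone of HSP70, rose by 0.26.

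Few p53 and cell cycle genes were called at this time, as was so over all tested genes (0.806% higher and 0.107% lower). Lists this short would hold few calls at those shares. Of 36 p53 targets 1 rose, FAS, a death receptor, from 11.38, 11.26 and 11.30 to 11.53, 11.57 and 11.57 (0.24 ± 0.039, SE; adjusted p = 0.00176). FAS lost its call with unmarked probe sets preferred, without any 1 experiment and from the 6 arrays alone. CDKN1A, the p53-induced inhibitor of cyclin-dependent kinases, had a change of -0.02 ± 0.042 (SE), with a 95% interval from -0.10 to 0.07. MDM2, the ubiquitin ligase of p53, had -0.08 ± 0.055, and GDF15, a stress-induced secreted factor, 0.15 ± 0.081 (SE). None of these 3 passed the test. Of 18 mitotic entry genes, 17 of the anaphase-promoting complex and mitotic exit, 13 of the spindle assembly checkpoint, 4 of the chromosomal passenger complex and 19 of the kinetochore, 0 were called.

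The mitotic cyclin CCNB1 measured 11.81, 11.95 and 11.84 with colcemid and 11.73, 11.88 and 11.73 without, so the groups overlapped, and its change of 0.09 had a 95% interval from -0.02 to 0.20. PLK1, AURKA, CDC20, CENPF and HMMR, all at their highest in mitosis, had changes of -0.04, 0.04, -0.10, 0.12 and -0.01 with overlapping groups on the probe sets that stand for them. For CDK1, also of the panel, the change was 0.06, with all treated arrays above all untreated ones. A further probe set of CCNB1 (0.11) and of CENPF (0.16) lay wholly above as well, whereas further ones of AURKA and HMMR overlapped. Among the 18 mitotic entry genes 4 lay wholly above and 0 wholly below, against 8.09% and 3.44% of all tested genes. All 13 mitotic kinesins, the motors of the spindle, had a change above 0, from 0.0083 to 0.20 with a median of 0.045, as had 9 of 9 cytokinesis genes (median 0.065) and 7469 of the 14023 tested genes. Of the kinesins 0 were called. With the experiment as a block 2 mitotic kinesins (KIF14 and KIF18A) and 2 mitotic entry genes (WEE1 and MASTL) were called higher. Of the cytokinesis genes ECT2, which is needed to form the cleavage furrow, rose by 0.16 ± 0.037 (SE; adjusted p = 0.0415), a call lost when any 1 array was left out. The 32 DNA replication genes had a median change of -0.0068 and the 16 histone genes of 0.016, with 0 calls in each. Bulk RNA cannot tell a change in a share of the cells from a change within each cell.

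Besides the tubulins, 11 genes fell, and several of them are non-coding RNAs. HNRNPD-DT, a divergent transcript of HNRNPD, measured 6.05, 5.85 and 5.87 with colcemid and 6.67, 6.65 and 6.35 without, a change of -0.63 ± 0.105 (SE; adjusted p = 0.00222). All treated arrays were lower, and all of them lay below the limit for testing. SNHG19, a host gene of small nucleolar RNAs, was at 10.13, 10.18 and 10.12 against 10.58, 10.69 and 10.48, lower on every treated array by a mean difference of -0.44 ± 0.048 (SE; adjusted p = 3.41e-05). The antisense transcripts PITPNA-AS1 and MAP3K5-AS2 each had a change of -0.29.

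TNFRSF17 (BCMA) is a survival receptor of plasma cells. It was at 8.36, 8.33 and 8.29 with colcemid and 8.87, 8.68 and 8.79 without, and its fall of -0.45 ± 0.065 (SE; adjusted p = 0.000538) left no overlap. IRF4, a transcription factor that plasma cells need, was at 11.61, 11.65 and 11.62 against 11.85, 11.85 and 11.83, a change of -0.22 ± 0.034 (SE; adjusted p = 0.000921). A further IRF4 probe set bright enough to be read changed by -0.04, with overlapping groups. TNFRSF17 and IRF4 were the called members of 8 plasma cell differentiation genes, whose median was -0.10 with 7 of 8 below 0. Over all tested genes 0.107% fell, and 6554 of 14023 had a change below 0. DYNLT2, a dynein light chain whose 6 arrays (5.05 to 5.87) all lay below the limit for testing, changed by -0.49, ZNF589 by -0.22, TXNIP, an inhibitor of thioredoxin, by -0.16 and GGCT, an enzyme of glutathione breakdown, by -0.15. The other DYNLT2 probe sets, which were too dim for testing, changed by 0.02, 0.05 and 0.08 with overlapping groups. Of all the falls, those of DYNLT2, PITPNA-AS1, MAP3K5-AS2, ZNF589, BCL2L10, TXNIP and GGCT lost their calls in at least 1 of the 6 fits that left out a single array.

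The lower doses at 4 h were compared with the same 3 untreated arrays, so their values share that error and are set side by side. At the lowest dose 0 genes were called (0.0%; limma), and 265 had an unadjusted p under 0.05. At the middle dose 9 were called (0.0642%): IFFO2, KLF6 and TSC22D3 higher (0.0214%), and TUBB3, TUBB4B, TUBA4A, SNHG19, HNRNPD-DT and ALOX12-AS1 lower (0.0428%). Without the untreated array of experiment 3, 5 were called at the middle dose. IFFO2 was at 7.50, 7.54 and 7.36 on the arrays of the lowest dose and at 7.89, 7.83 and 7.92 on those of the middle dose. Its changes from untreated were thus 0.11, 0.52 and 1.16 from the lowest to the highest dose, each ± 0.073 (SE). KLF6 gave 0.11, 0.33 and 1.06 (each ± 0.057, SE) and TSC22D3 gave 0.14, 0.45 and 0.95 (each ± 0.051, SE). For CD69 the changes were 0.01, 0.23 and 0.99, for JUND 0.03, 0.13 and 0.68, for PPP1R15A 0.02, 0.14 and 0.61 and for DUSP10 -0.0039, 0.09 and 0.58. For these 4 genes the value at the highest dose was several times that at the middle dose.

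The 4 tubulins that fell had means below untreated at the lower doses as well, and the spacing of their doses was not tested against that of the genes that rose. TUBA4A had 11.91, 11.87 and 11.89 at the lowest dose and 11.81, 11.85 and 11.85 at the middle dose, so that its changes were -0.14, -0.19 and -0.33 (each ± 0.035, SE). TUBB3 had -0.15, -0.21 and -0.26, TUBB4B -0.15, -0.20 and -0.26, and TUBB -0.08, -0.12 and -0.18. SNHG19 went by -0.22, -0.35 and -0.44. At the lowest dose none of these passed the test (adjusted p from 0.749 to 1), although the 3 TUBA4A arrays of that dose lay below all 3 untreated arrays. The 113 genes that rose at the highest dose, chosen there, had medians of 0.045, 0.11 and 0.30 at the 3 doses, and the 15 that fell had -0.093, -0.12 and -0.26.

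The highest dose was also tested directly against the lowest at 4 h. There 87 genes were called (0.62%), 81 higher (0.578%) and 6 lower (0.0428%), and 171 with the experiment as a block. KLF6 was higher at the highest dose by 0.95 ± 0.057, IFFO2 by 1.05 ± 0.073 and CD69 by 0.98 ± 0.090 (SE; adjusted p from 7.83e-09 to 2.77e-06). TUBA4A was lower by a difference of -0.19 ± 0.035 (SE; adjusted p = 0.00984). The differences of TUBB4B and TUBB3 were -0.11 ± 0.034 and -0.11 ± 0.033 (SE), with adjusted p of 0.269 and 0.288, so a step between these doses did not pass the test for them.

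**Figure D4:**
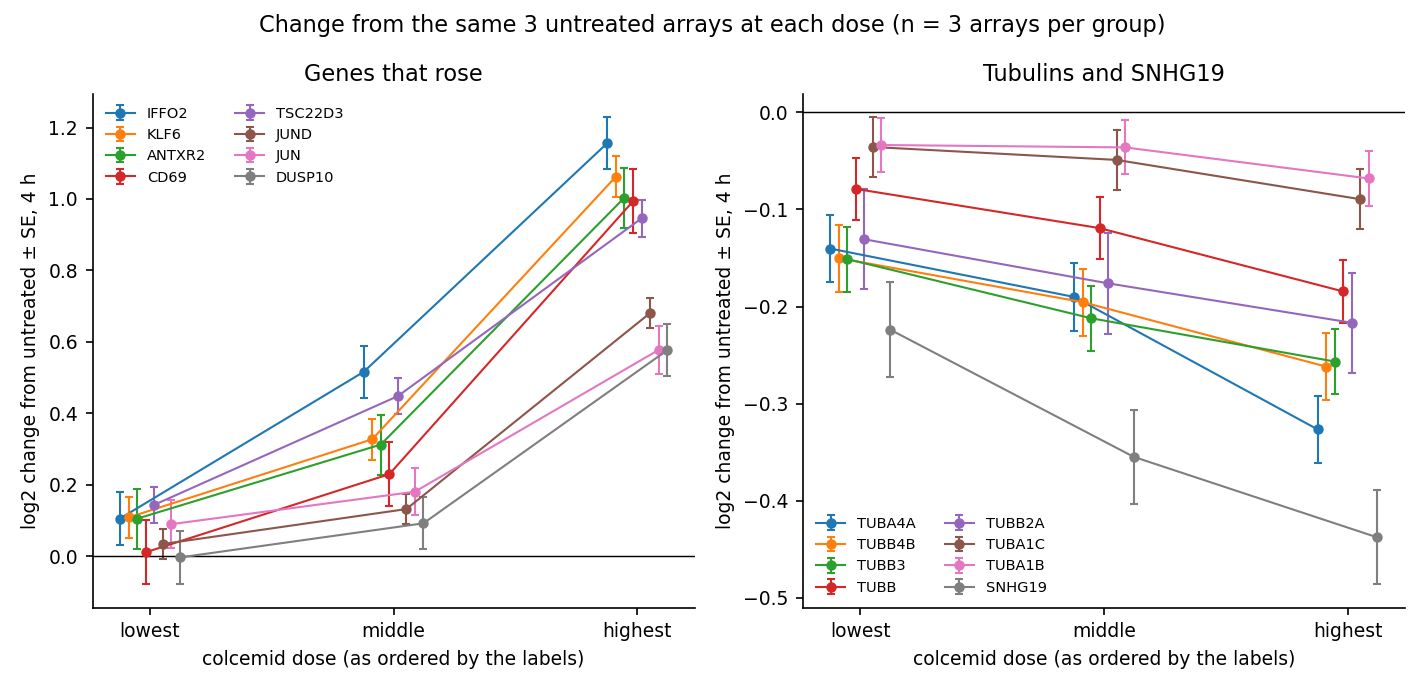
Change from untreated at 4 h (log2 ± SE, n = 3 arrays per group) at the lowest, middle and highest dose, all against the same 3 untreated arrays, for 8 genes that rose (left) and for tubulins and SNHG19 (right; the vertical scales differ). CD69, JUND and DUSP10 are near 0 at the lowest dose and climb steeply from the middle to the highest, and TUBA4A, TUBB4B, TUBB3 and SNHG19 have means below 0 at the lowest dose, where none passed the test.

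By 24 h at the same dose the response was far wider, with 5098 genes called (36.4%), 2531 higher (18%) and 2567 lower (18.3%) than the untreated arrays of 24 h, which are other arrays than those of 4 h. Of the 113 early rises, 93 were higher at 24 h, 6 were lower and 14 were not called. Of the 15 early falls, 13 were lower and 2 were higher. RGS1 reached 2.28 at 24 h against 0.81 at 4 h, TNFAIP6 1.95 against 0.58, JUN 1.53 against 0.58 and DUSP10 1.55 against 0.58. TUBB stood at -1.07 against -0.18, TUBA4A at -1.02 against -0.33 and TNFRSF17 at -1.73 against -0.45. These 7 genes had larger changes at the later time, and for each the difference between times passed the test (adjusted p from 4.67e-11 to 7.47e-07).

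Of the 113 early rises, the change at 24 h was more positive than at 4 h for 54 by that test, more negative for 16 and not called as different for 43, among these IFFO2, RAB11FIP1 and CXCL8. JUND was among the 16, with 0.27 ± 0.043 at 24 h (SE) after 0.68 ± 0.043 at 4 h, a difference of -0.41 ± 0.060 (SE; adjusted p = 4.27e-05). The 6 early rises that were lower than untreated at 24 h were DNAJB1 (-0.52), HMGCS1 (-0.23), RPRD1A (-0.22), RASA2 (-0.16), AKAP11 (-0.11) and SLC38A2 (-0.08). The 2 early falls that were higher at 24 h were TXNIP, at 0.83 ± 0.035, and PITPNA-AS1, at 0.15 ± 0.055 (SE). TUBB2A and TUBA1A also went above untreated at 24 h, by 0.51 and 0.84, while TUBA1B and TUBA1C were at -0.52 and -0.58. Over all genes, the change at 24 h differed from that at 4 h for 3155 (22.5%), 1474 more positive at 24 h and 1681 more negative.

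The p53 targets and DNA replication genes, with 1 and 0 calls at 4 h, were mostly called at 24 h. Of 36 p53 targets 32 rose at 24 h, and for 30 the difference between times was called, with CDKN1A at 1.04 and GDF15 at 2.16. Of 32 DNA replication genes 30 fell at 24 h, and for 29 the difference between times was called. Over all tested genes 18% rose and 18.3% fell at 24 h, and the difference between times was called for 22.5%. CYP4F3, a fatty acid hydroxylase, had the largest difference between times, from 0.06 at 4 h to 4.30 at 24 h. The histones H2AC6 and H2BC12 went from -0.17 and 0.05 at 4 h to 2.77 and 2.31 at 24 h. FOS, EGR1 and ATF3, without a call at 4 h, were at 0.70, 1.84 and 1.62 at 24 h.

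Vincristine, another chemical that binds tubulin and stops its assembly, was given in a separate set of experiments with its own untreated arrays. Its highest dose carries the same label as that of colcemid, but equal labels need not be equally active. Over 4 h vincristine changed 35 genes (0.25%), 26 higher (0.185%) and 9 lower (0.0642%). Of the 113 genes raised by colcemid 16 were called higher with vincristine, among them CD69 (0.61), KLF6 (0.35), JUN (0.37), DUSP10 (0.38), SOCS3 (0.67) and TNF (0.38). Of the 15 that fell with colcemid 5 were called lower with vincristine: TUBB3 (-0.29), TUBA4A (-0.25), SNHG19 (-0.43), TNFRSF17 (-0.36) and HNRNPD-DT (-0.63).

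The difference between the 2 chemicals' changes was tested in 1 fit of 48 arrays and was called for 8 genes (0.057%), all with the larger value for colcemid. ANTXR2 was at 6.27, 6.08 and 6.13 with vincristine and at 6.12, 6.24 and 6.16 in its untreated arrays, so the groups overlapped. Its colcemid change exceeded its vincristine change of -0.01 by 1.01, with a 95% interval from 0.78 to 1.25 (adjusted p = 9.85e-07). IFFO2 was at 7.43, 7.68 and 7.42 with vincristine against 7.29, 7.40 and 7.20, and the difference between the chemicals was 0.94, with an interval from 0.73 to 1.15 (adjusted p = 7.65e-07). TSC22D3 differed by 0.75 (interval 0.58 to 0.92), KLF6 by 0.71 (0.53 to 0.90), PPP1R15A by 0.47, RAB11FIP1 by 0.46 and JUND by 0.42 (0.31 to 0.54). CFAP69, a cilia and flagella protein, differed by 0.64 (0.45 to 0.83), with 0.42 for colcemid and -0.22 for vincristine, the latter with adjusted p = 0.36.

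For the tubulins no difference between the chemicals was called. The difference for TUBA4A was -0.08, with an interval from -0.19 to 0.03, and those of TUBB4B, TUBB3 and TUBB were -0.06 ± 0.062, 0.03 ± 0.061 and -0.05 ± 0.045 (SE). CD69 differed by 0.39 (interval 0.11 to 0.67), which did not pass after adjustment. The untreated arrays of the 2 sets differed in 1 gene at 4 h (0.00713%; TNPO3), and in 1319 at an unadjusted p under 0.05.

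**Figure D5:**
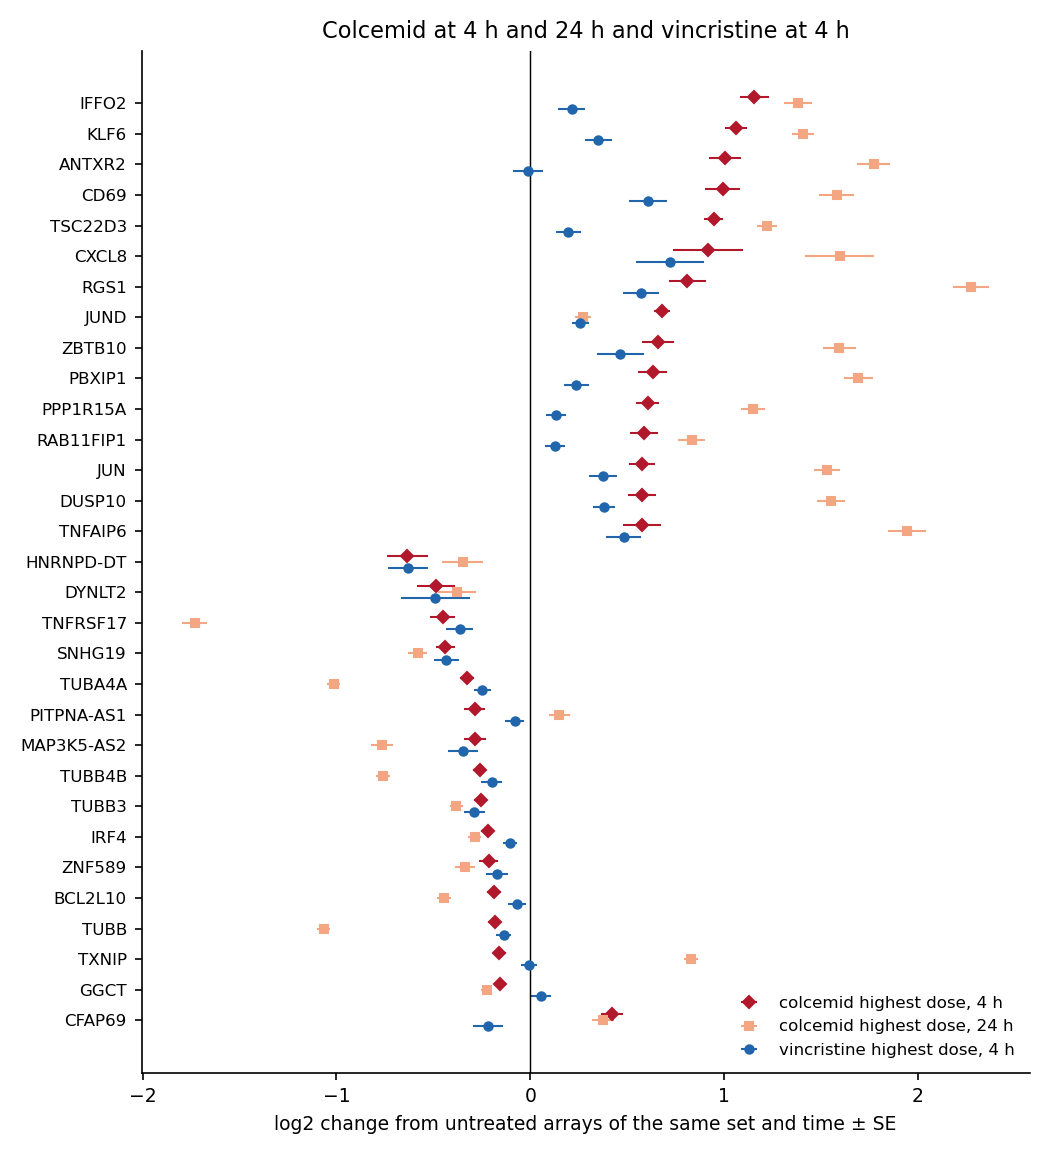
Change from untreated (log2 ± SE, n = 3 arrays per group) of the genes with the largest rises, all falls and CFAP69, for the highest colcemid dose at 4 h (red diamonds) and 24 h (orange squares) and the highest vincristine dose at 4 h (blue circles). For IFFO2, ANTXR2, TSC22D3 and KLF6 the blue circle lies far left of the red diamond, while for the tubulins, SNHG19 and HNRNPD-DT both lie close together.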

How the data were processed

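Total RNA was hybridized to Affymetrix arrays, per the labels, and the deposited log2 values per probe set were made by the authors with RMA, per the submitters' processing notes, and its version is not given in the sources used here. In all there were 54675 probe sets on 120 arrays. Of these, 41091 name 1 gene symbol, 1801 several and 11721 none, and only the first kind was used. The brightest probe set on average stands for its gene and entered the test when it was at or above 6.183 on at least 3 arrays (the midpoint of all probe sets' averages), which left 14023 genes.

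Group means of the 24 colcemid-set arrays were fitted in limma 3.58.1 (R 4.3.3), with no block, and the 48 arrays of both sets for comparisons with vincristine. Two-sided moderated tests were adjusted by Benjamini and Hochberg over all tested genes, with calls at 0.05. Array number limits the precision. The members and lists were chosen with earlier results of these data known. Named genes are the 15 largest rises and falls that moved alike in 3 experiments, all alpha and beta tubulins, up to 6 called genes of each of 36 lists, a panel of mitotic, p53 and stress genes, and the largest differences from 24 h and vincristine (6 each way). IER3, genes called only with the block, the 6 early rises reversed at 24 h and a few genes in the closing observations were named after their values were seen. Of the panel, 3 genes were too dim or unmatched and were not tested, and 1 of the lists is not reported here.

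Experiment numbers were taken to pair arrays: deviations from the group means correlated at 0.454, 0.276 and 0.640 for equal numbers and from -0.533 to 0.270 for others. On simulated data for 14023 genes of the main comparison, 92% of changes of 0.5 and 99% of changes of 1 (log2) were called, with 9 false calls. The simulated noise was independent between arrays, without pairing of experiments or an outlying array, and no change below 0.5 was simulated. These rates need not hold for the real arrays or for smaller changes. The alternatives took the experiment as a block, dropped the filter, averaged probe sets, preferred probe sets not marked as matching several sequences, repeated quantile normalization, used all 120 arrays or fewer, and left out arrays or experiments. Promoters are RefSeq's (GRCh38.p14), the first entry per symbol, found for 108 of 128 called genes. Figures were drawn with matplotlib 3.10.9 in python 3.11.15 (scipy 1.17.1, pandas 2.3.3, numpy 2.4.6).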

Additional observations from a re-analysis of the deposited data

Results flagged for a closer look

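The change with the highest colcemid dose differed between 24 h and 4 h for 3155 genes by limma's test of that difference. Among the genes named for their change at 4 h, the value at 24 h was the more positive, by the log2 amount given, for RGS1 (1.46), TNFAIP6 (1.37), PBXIP1 (1.06), TXNIP (0.99), DUSP10 (0.98), JUN (0.96), ZBTB10 (0.94), ANTXR2 (0.77), CD69 (0.59), PPP1R15A (0.54), PITPNA-AS1 (0.44), KLF6 (0.35) and TSC22D3 (0.28). It was the more negative for TNFRSF17 (-1.28), TUBB (-0.88), TUBA4A (-0.69), TUBB4B (-0.50), MAP3K5-AS2 (-0.48), JUND (-0.41) and BCL2L10 (-0.26).

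The genes with the largest differences between the times in the positive direction were CYP4F3 (4.24), H2AC6 (2.94), H2BC12 (2.26), CYP4F2 (2.22), FAM13C (2.07) and LOC101927723 (2.05). In the negative direction they were IGHM (-1.64), MIR210HG (-1.61), APELA (-1.57), FBXO5 (-1.53) and ERICH3 (-1.33), beside TNFRSF17. FBXO5 encodes an inhibitor of the anaphase-promoting complex, and IGHM the heavy chain of IgM.

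The change at 4 h differed between colcemid and vincristine for 8 genes by limma's test of that difference. The colcemid change was the larger by 1.01 for ANTXR2, 0.94 for IFFO2, 0.75 for TSC22D3, 0.71 for KLF6, 0.64 for CFAP69, 0.47 for PPP1R15A, 0.46 for RAB11FIP1 and 0.42 for JUND.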

How the results depend on the processing

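The 128 calls of the highest dose at 4 h became 278 with experiment as a replicate block, 239 with quantile normalization repeated (185 higher, 54 lower), 83 with the mean of probe sets, 84 with the 12 colcemid-set arrays at 4 h and 20 with the 6 arrays compared (20 higher, 0 lower). Of 49 called genes named, the block kept 49, the 6 arrays alone 13, fits without an experiment 17 to 28 and fits without a single array 35 to 40. Leaving out an experiment gave 22 to 51, and leaving out a single array 84 to 123. No named gene's change was reversed, and 8 genes (IFFO2, KLF6, CD69, RGS1, JUND, ZBTB10, PPP1R15A and RAB11FIP1) were called in every setting run. The middle dose's 9 calls became 3 without the filter, 4 with unmarked probe sets preferred, 5 with untreated experiment 3 left out and 0 to 2 without an experiment. Against the lowest dose, 87 became 171 with the replicate block, 56 with the mean of probe sets, 147 with quantile normalization repeated and 9 to 23 without an experiment. The difference between times gave 1721 to 2064 without an experiment and 3026 with untreated experiment 3 left out. The difference from vincristine gave 20 with quantile normalization repeated and 4 to 6 without an experiment. The single call between the untreated sets became 0 with the mean of probe sets, 0 or 1 without an experiment and 2 with untreated experiment 3 left out, and the block could not be fitted there, since the experiments of each set are its own. Among the genes named by rule, the block changed no call other than that of TUBB2A, and genes named outside the rule as called with the block only were KIF14, KIF18A, WEE1 and MASTL. Leaving out untreated experiment 3 with the block (155 calls), and in the comparisons after the first, was chosen after seeing the data. With 3 arrays per group, small changes can go uncalled.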

Other observations

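Several genes of the cell surface and of secreted signals that stand in none of the lists' calls also rose at 4 h, and they were picked after their values were seen. CD55, an inhibitor of complement, measured 10.07, 10.03 and 10.11 with colcemid and 9.58, 9.63 and 9.44 without, a rise of 0.52 ± 0.060 (SE; limma, adjusted p = 4.71e-05). IL10RA, a subunit of the interleukin-10 receptor, rose by 0.45, ADGRE5 (CD97), an adhesion receptor that binds CD55, by 0.43, BMP2 by 0.37 and the chemokine CCL20 by 0.34. For each of these 5 genes the treated arrays lay above all untreated ones. At 24 h they stood at 1.09, 1.13, 0.60, 0.61 and 1.32 above untreated. With vincristine at 4 h IL10RA was called, at 0.57, and CD55 had 0.28 with adjusted p = 0.0802.

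The 2 regulatory partners of protein phosphatase 1 that act on eIF2alpha were both higher at 4 h. PPP1R15B, the form present without stress, lay at 11.28 to 11.32 with colcemid, above all 3 untreated arrays, a rise of 0.28 ± 0.034 (SE; limma, adjusted p = 6.15e-05), beside the 0.61 of PPP1R15A. EIF2AK3 (PERK), a kinase of eIF2alpha, rose by 0.23. PPP1R15B and EIF2AK3 were picked after their values were seen, and the other kinases of eIF2alpha are not given here. The lists of ATF4 and amino acid response and of the unfolded protein response held 0 called genes of 24 and of 15 at 4 h, against 0.913% of all tested genes.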
